A study of Mus musculus with 7 samples.

Results

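A group of 10 genes of histone supply and chromatin binding were followed in mouse embryonic fibroblasts (MEFs), out of the 15531 genes that the study tested. They were chosen by role and with earlier results of these data known. They are the H2A variant genes H2afx, H2afz and H2afv (now named H2ax, H2az1 and H2az2), the H2A.Z chaperone gene Anp32e, the H3-H4 chaperone genes Asf1b, Chaf1a, Chaf1b and Nasp, and the HMGB genes Hmgb1 and Hmgb2. All 10 were among the tested genes, and 7 of them were listed as differing between genotypes, each with a higher mean in the cells that carry a deletion of part of chromosome 4. Of all tested genes, 8.67% were listed, and 5.13% were listed with a higher mean in those cells.

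A histone chaperone holds newly made or evicted histones and hands them to DNA, so that they are not left free. CAF-1, whose large and middle subunits are the products of Chaf1a and Chaf1b, puts H3-H4 onto newly copied DNA and receives them from ASF1, while NASP keeps the reserve of soluble H3-H4. H2A variants replace ordinary H2A at chosen places: H2A.Z marks promoters and is removed by ANP32E, and H2A.X is phosphorylated around DNA breaks. HMGB proteins are no histones, but abundant DNA-bending proteins that bind without sequence specificity and loosen nucleosomes.

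PolyA+ RNA of 7 primary MEF lines was measured by paired-end sequencing of stranded libraries, to ask how a heterozygous deletion on chromosome 4 changes gene expression. The 4 Df/+Bl6 lines carried Df, an engineered 4.3 Mb deletion on a 129S5/SvEvBrd chromosome 4, opposite an intact C57BL/6J chromosome 4, and the 3 +129/+Bl6 lines carried an intact chromosome 4 from each strain. All lines came from embryos of embryonic day 13.5, and both groups were F1 hybrids of the same strains. The Df/+Bl6 embryos came from crosses of chimeric males with C57BL/6J females. The controls are described as F1 +129/+Bl6 crosses, and whether both groups shared crosses or litters is not given per line. Cells were taken after reaching confluency at passage 4. The study's methods call the lines independent, and the processed tables used here hold 1 mean per genotype, so no value per line, no spread between lines and no depth per library can be given.

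A gene is called listed where it stands in the table of genes past the authors' limit, a false discovery rate (FDR) of 0.05 in their DESeq test. Its level is the authors' mean normalized count per genotype, which is not divided by gene length and therefore is compared only between genotypes, not between genes. Beside a table for both alleles together there is 1 for reads assigned to the 129S5/SvEvBrd allele and 1 for reads assigned to the C57BL/6J allele, each normalized by itself. The listing of a gene is thus the authors' call, and the log2 ratios of Df/+Bl6 over +129/+Bl6 given here are descriptions with no error of their own. As a check of the genotypes, 21 genes between Rere and Ski, which bracket the deletion, were listed for the 129S5/SvEvBrd allele, all 21 lower in Df/+Bl6, at a median of 0.485% of the +129/+Bl6 mean. In the table for both alleles, 26 genes of the interval were listed, all lower, at a median of 45.7%. In the table of the C57BL/6J allele, 11 genes of the interval were listed, all lower, at a median of 54.6%, although that homologue is intact in Df/+Bl6. Values of the C57BL/6J allele are given with that in view, and its cause was not tested.

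Promoter sequences of 5 members are shown first, 4 of them listed and 1 not, because the same motifs occur in both. Each is the 100 bases before the transcript start that the promoter table uses, 5′ to 3′ on the gene's own strand, from RefSeq on GRCm38.p6, with capitals for CCAAT boxes (CCAAT or, reversed, ATTGG) and for the cell cycle homology region or CHR (TTTGAA or TTCGAA, or TTCAAA where reversed). Hmgb2 and Asf1b hold both motifs here, Hmgb1 and Anp32e hold CCAAT boxes, and H2afv is an unlisted member with both. The table's start can lie inside the annotated gene span, so that 68 bases of the H2afv stretch and 12 of the Anp32e stretch fall within the gene.
Hmgb2, chr8:57511743-57511842, plus strand: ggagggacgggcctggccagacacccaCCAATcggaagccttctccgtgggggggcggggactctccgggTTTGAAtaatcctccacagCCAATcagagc
Asf1b, chr8:83955594-83955693, plus strand: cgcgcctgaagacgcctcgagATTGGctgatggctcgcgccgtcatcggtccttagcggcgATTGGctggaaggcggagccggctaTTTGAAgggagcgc
Hmgb1, chr5:149053058-149053157, minus strand: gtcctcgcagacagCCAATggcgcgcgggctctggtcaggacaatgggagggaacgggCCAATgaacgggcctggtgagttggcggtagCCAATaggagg
Anp32e, chr3:95929157-95929256, plus strand: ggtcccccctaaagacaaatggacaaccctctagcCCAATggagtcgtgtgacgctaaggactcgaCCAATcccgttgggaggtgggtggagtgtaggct
H2afv, chr11:6444444-6444543, minus strand: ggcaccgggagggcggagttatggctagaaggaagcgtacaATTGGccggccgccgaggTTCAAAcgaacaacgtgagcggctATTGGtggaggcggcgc

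In the table for both alleles, 7 of the 10 members were listed, all 7 higher in Df/+Bl6 and 0 lower. Of all 15531 genes tested, 8.67% were listed in either direction, 5.13% higher and 3.54% lower. Because the members were chosen with earlier results of these data known, their count beside these shares is a description and no test. The 7 log2 ratios lay between 0.69 and 1.14 with a median of 0.70, and the median of the 796 genes listed higher was 0.80. 4 members lay under that median and 3 above it, so the members' ratios were of middling size among the genes listed higher. In RNA from whole cultures, a larger share of cells with a transcript and more of the transcript per cell cannot be told apart.

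Among the H3-H4 chaperones, Nasp (ENSMUSG00000028693, chr4:116601052-116628676) had the largest ratio. Its mean was 7179 normalized counts in Df/+Bl6 and 3542 in +129/+Bl6, a 2.03-fold higher level or 1.02 on the log2 scale, larger than in 73.7% of the genes listed higher. It was also the 1 member on the chromosome that carries the deletion. It lay 33.7 Mb before Rere and was therefore outside the deleted segment. Nasp was listed in neither allele's table.

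Chaf1b (ENSMUSG00000022945, chr16:93883900-93906115), the middle subunit of CAF-1, followed with 3240 normalized counts in Df/+Bl6 and 1790 in +129/+Bl6, 1.81-fold higher and 0.86 on the log2 scale. On the 129S5/SvEvBrd allele its mean was 168.4 against 78.3, a log2 ratio of 1.11 or 2.15-fold. The large subunit gene Chaf1a (ENSMUSG00000002835, chr17:56040416-56068026) had 7015 against 4331 normalized counts, 1.62-fold and 0.70 on the log2 scale, and was listed in neither allele's table. Chaf1a was the 1 member whose annotated span overlapped another gene, Ubxn6. Whether the overlap lies within the transcripts that were counted was not examined. The authors kept only read pairs with 1 best mapping place, the counting is not stated to use strand, and the effect of the overlap was not tested. The third CAF-1 subunit gene, Rbbp4, which other complexes share, was tested and not listed.

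Asf1b (ENSMUSG00000005470, chr8:83955694-83970195), the ASF1 gene expressed mainly in dividing cells, had 3518 normalized counts in Df/+Bl6 and 2162 in +129/+Bl6, 1.63-fold higher and 0.70 on the log2 scale. Its paralog Asf1a was listed higher as well, with 1049 against 583 and a log2 ratio of 0.85. Both ASF1 genes and 2 of the 3 CAF-1 genes were thus listed in the same direction.

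Of the HMGB genes, Hmgb2 (ENSMUSG00000054717, chr8:57511843-57515999), which is known for high levels in dividing cells, had the largest ratio of the 10 members. Its mean was 5696 normalized counts in Df/+Bl6 and 2578 in +129/+Bl6, 2.21-fold higher and 1.14 on the log2 scale, larger than in 80.9% of the genes listed higher. On the 129S5/SvEvBrd allele it was 156.8 against 83.4, a log2 ratio of 0.91. The widely expressed Hmgb1 (ENSMUSG00000066551, chr5:149046702-149053057) had 21791 against 13489 normalized counts, 1.62-fold and 0.69 on the log2 scale. On the 129S5/SvEvBrd allele Hmgb1 had 5744 against 3870, and its log2 ratio of 0.57 was the smallest among the 134 genes listed higher in that table. A further HMGB gene, Hmgb3, was listed with 2179 against 1087 normalized counts and a log2 ratio of 1.00, so 3 of the 3 HMGB genes tested were listed higher. Hmgb4 was not among the tested genes.

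Hmgb1 and Hmgb2 have near-identical copies in the genome, and their values are less certain for that reason. Stretches of at least 100 bases with at least 97% identity to the transcript were found at 20 other places for Hmgb1 and 8 for Hmgb2 on the NCBIM37 assembly. They overlapped 10 annotated genes for Hmgb1, of which 1 was tested, and 5 for Hmgb2, of which 0 were tested. H2afz had 2 such stretches, and the other 7 members had 0. The authors kept only read pairs with 1 best mapping place, and how that split reads between a gene and its copies was not tested.

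Of the 3 H2A variant genes among the members none was listed, and the H2A.Z chaperone gene was. Anp32e (ENSMUSG00000015749, chr3:95929245-95947387), the chaperone that takes H2A.Z out of nucleosomes, had 12695 normalized counts in Df/+Bl6 and 7876 in +129/+Bl6, 1.61-fold higher and 0.69 on the log2 scale. It was the 1 member listed for both alleles, with 432.7 against 206.9 on the 129S5/SvEvBrd allele (log2 ratio 1.06) and 669.8 against 403.6 on the C57BL/6J allele (log2 ratio 0.73). The H2A.Z genes H2afz (ENSMUSG00000037894, chr3:137864487-137866922) and H2afv (ENSMUSG00000041126, chr11:6427226-6444511) and the H2A.X gene H2afx (ENSMUSG00000049932, chr9:44334715-44336077) were tested and listed in none of the 3 tables. Their levels are not given here, because the tables used give means for listed genes only. That they were not listed does not show that they were unchanged.

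**Figure D1:**
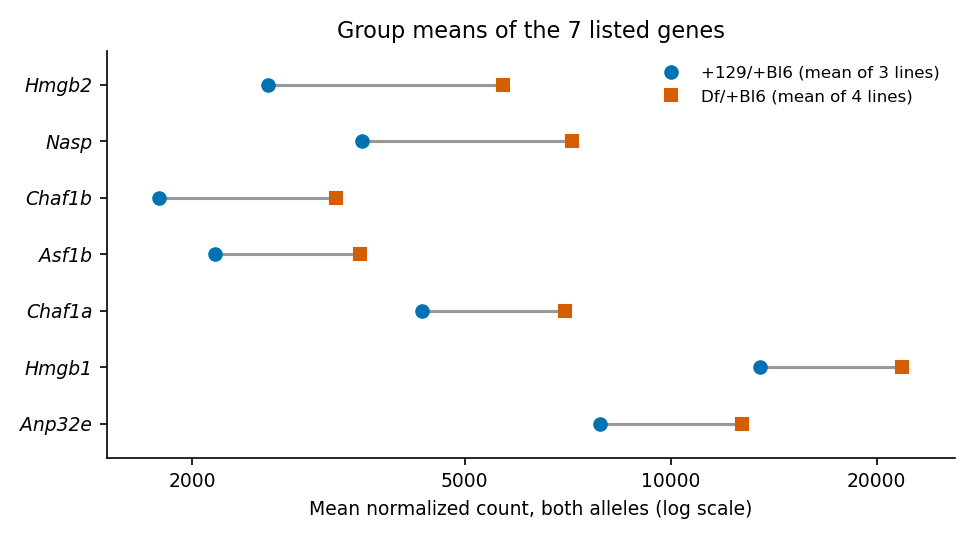
The authors' mean normalized counts of the 7 listed members, on a log axis, with circles for the mean of 3 +129/+Bl6 lines and squares for the mean of 4 Df/+Bl6 lines, joined by a line per gene, in order of the log2 ratio and without error bars, since the table holds no value per line. The square lies to the right of the circle in all 7 genes, and the join is longest for Hmgb2 (2578 to 5696) and Nasp (3542 to 7179).

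The members' ratios fell into a close set and a spread of larger ones. Anp32e, Hmgb1, Chaf1a and Asf1b lay within 0.69 to 0.70 on the log2 scale, and Chaf1b, Nasp and Hmgb2 lay at 0.86, 1.02 and 1.14. Values near 0.70 were common in the table: 134 genes listed higher had log2 ratios between 0.65 and 0.75. The closeness of those 4 members is given for that reason as a description only. The smallest log2 ratio of any gene listed higher was 0.47. The table was limited by FDR and not by fold, so this is no limit of detection.

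**Figure D2:**
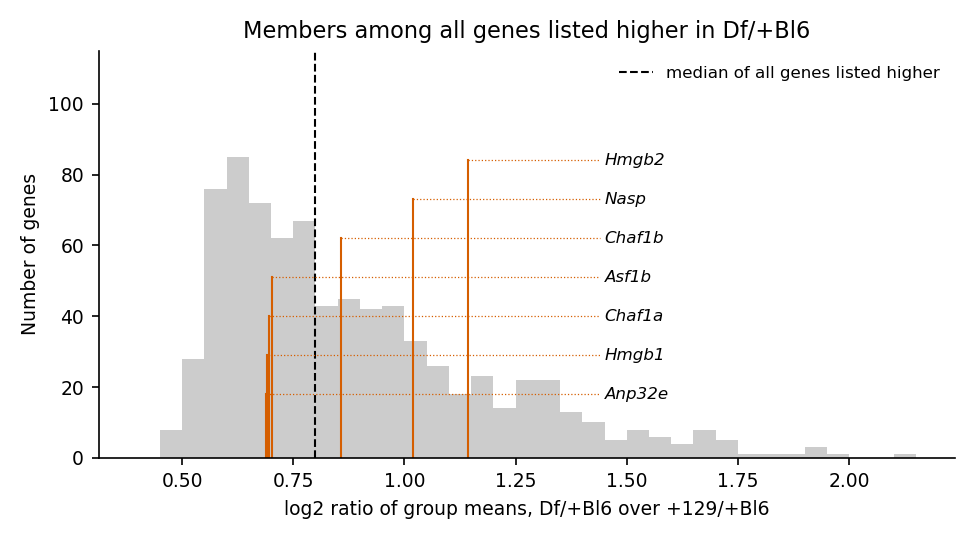
Histogram of the log2 ratio of group means (Df/+Bl6 over +129/+Bl6) for the 796 genes listed higher, with the number of genes on the vertical axis, the median of 0.80 as a dashed line and each of the 7 listed members as a vertical line whose height has no meaning. Anp32e, Hmgb1, Chaf1a and Asf1b stand together left of the median, and Chaf1b, Nasp and Hmgb2 stand right of it.

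Reads that could be assigned to an allele gave smaller counts and fewer listed members. In the table of the 129S5/SvEvBrd allele, 4 members were listed (Anp32e, Chaf1b, Hmgb1 and Hmgb2), all higher, with a median log2 ratio of 0.99 beside 1.05 over the 134 genes listed higher there. In the table of the C57BL/6J allele, 1 member was listed (Anp32e), at 0.73 beside a median of 0.99 over 181 genes listed higher. Of the 796 genes listed higher for both alleles together, 14.7% were also listed higher for the 129S5/SvEvBrd allele and 20.0% for the C57BL/6J allele. The corresponding counts among the 7 listed members were 4 and 1. The same lines gave all 3 tables, so the allele tables are not independent of the first, and a member missing from an allele's table is not shown to differ between alleles. The difference between alleles was not tested here.

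**Figure D3:**
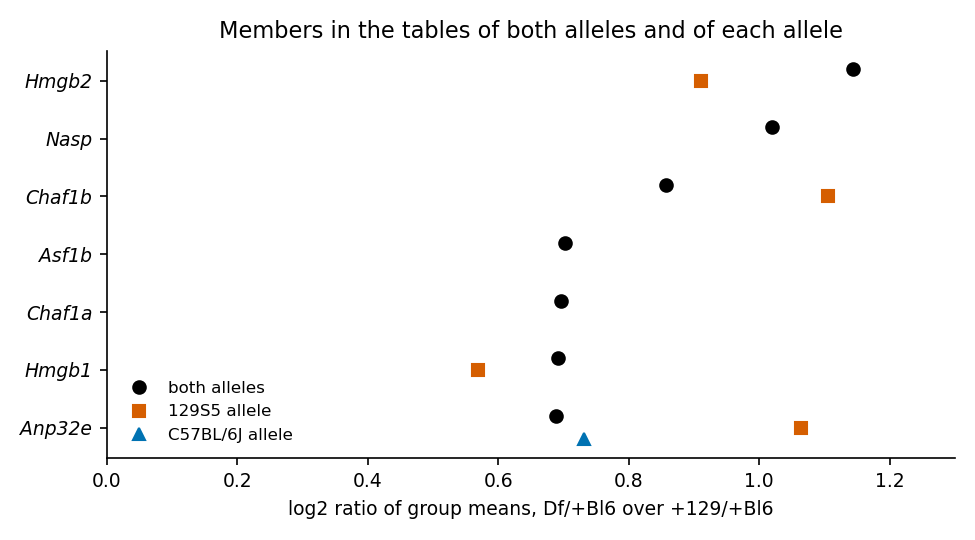
Log2 ratios of group means (Df/+Bl6 over +129/+Bl6) of the 7 listed members in the table of both alleles and, where listed, in the tables of the 129S5/SvEvBrd and the C57BL/6J allele, each point being a ratio of 2 group means with no error bar. Chaf1b and Anp32e have larger ratios on the 129S5/SvEvBrd allele (1.11 and 1.06) than for both alleles together, and Hmgb1 and Hmgb2 have smaller ones (0.57 and 0.91).

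Other genes of the same pathways, grouped by role and counted without the 10 members, were mostly listed higher or not listed. These lists, too, were chosen with earlier results of these data known. Over 6 chromatin lists together, 21 of 63 tested genes were listed higher and 1 lower, with a median log2 ratio of 0.76 among those listed. The H3-H4 chaperone list held 9 of 22 listed higher, 0 lower and a median of 0.85. Its 3 genes of highest mean were Atrx, a remodeler that works with DAXX (21452 against 13166, log2 ratio 0.70), Mcm2, a helicase subunit that binds H3-H4 (13086 against 8085, 0.69), and Hjurp, the chaperone of the centromeric H3 variant CENP-A (12582 against 7297, 0.79).

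Within these lists, small groups around the members differed in how many genes were listed. The groups were set after the values were seen and carry no test. Of the genes of CENP-A deposition, Mis18a and Oip5 were listed higher beside Hjurp, with log2 ratios of 0.71 and 1.01. None of the 4 genes of the HIRA complex, which deposits H3.3 outside of DNA copying, was listed, and neither was any of the 2 H3.3 genes. The DAXX-ATRX pair had 1 of 2 listed, Atrx.

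The list of histone variants and linker histones held 7 other tested genes, of which 1 was listed higher and 1 lower. Cenpa, the gene of CENP-A itself, was higher with 2042 against 962 normalized counts and a log2 ratio of 1.09. H2afj, which encodes the variant H2A.J, was lower with 5284 against 8570 and a log2 ratio of -0.70, and it was lower in both allele tables as well (-0.77 and -0.68). Of 6 H2A variant genes, including H2afx, H2afz and H2afv, 0 were listed higher and 1 lower. None of the 9 genes of the complexes that exchange H2A.Z was listed.

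Anp32e is one of the H2A-H2B chaperone genes. Of 11 others on that list, 5 were listed higher and 0 lower, with a median log2 ratio of 0.69. The 3 of highest mean were Ncl, nucleolin (123995 against 72849, log2 ratio 0.77), Nap1l1 (35670 against 21160, 0.75) and the Anp32e paralog Anp32a (20070 against 14302, 0.49). Supt16, a subunit of FACT, the complex that lets polymerases pass nucleosomes, had 19565 against 13091 and 0.58, while the other FACT subunit gene was not listed.

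Of 7 other high mobility group genes, 3 were listed higher and 0 lower: Hmgb3 (above), Hmgn2 (6969 against 3898, log2 ratio 0.84) and Hmgn5 (2182 against 1450, 0.59). HMGN proteins bind the nucleosome core itself, and 2 of 4 HMGN genes were listed. Neither of the 2 HMGA genes, whose proteins bind AT-rich DNA, was listed.

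Genes of histone mRNA supply and replication-dependent histone genes, the set used in S phase, were counted as well, and most of both were not listed. Of 7 genes of histone mRNA supply, 3 were listed higher: Npat, the activator of histone genes (6249 against 3930, log2 ratio 0.67), Casp8ap2, also known as FLASH (4519 against 1762, 1.36), and Slbp, which binds the stem-loop of histone mRNA (2961 against 1843, 0.68). Of 37 tested replication-dependent histone genes, 0 were listed higher and 5 lower, with a median log2 ratio of -1.28. Hist1h1c, a linker histone gene, was the most highly counted of them (4908 against 9423, -0.94) and was lower on both alleles (-1.07 and -0.90). The others were Hist1h2al (127.6 against 309.8, -1.28), Hist1h4h (140.7 against 337.3, -1.26), Hist1h4n (45.7 against 175.0, -1.94) and Hist2h3c1 (155.0 against 426.1, -1.46). These genes belong to families of near-identical copies and mostly make mRNA without a polyA tail, while the libraries were made from polyA+ RNA, so their counts cover an unknown part of the transcripts.

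**Figure D4:**
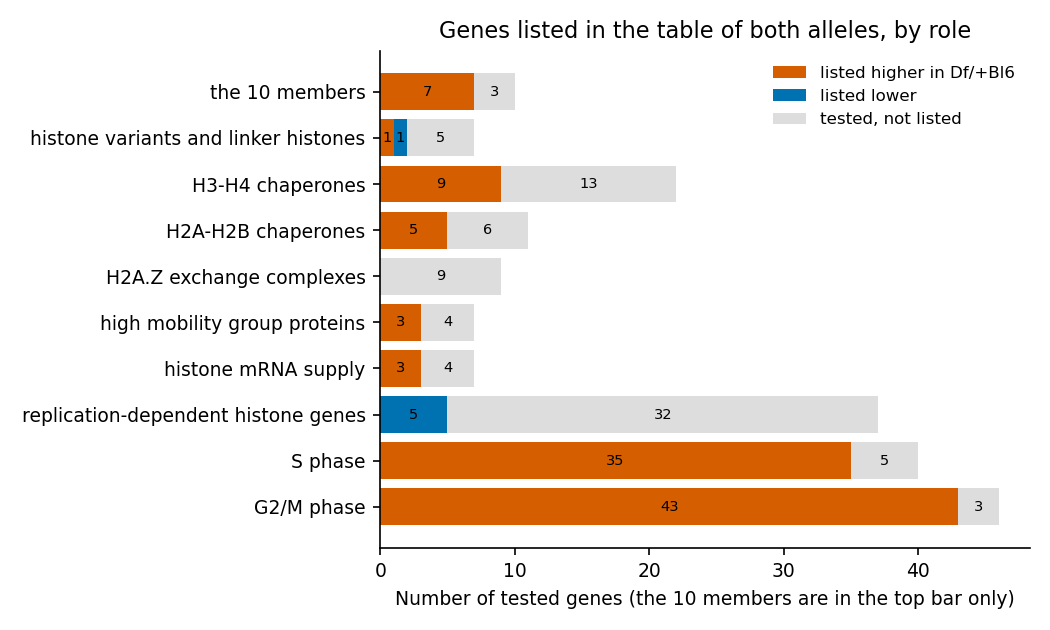
Number of tested genes listed higher in Df/+Bl6, listed lower and not listed, for the 10 members in the top bar and for 9 lists by role without the members, where a gene can stand in more than 1 list. The S phase and G2/M phase bars are almost wholly listed higher (35 of 40 and 43 of 46), the chaperone bars in part, and the replication-dependent histone bar holds no gene listed higher.

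Genes of cell division were counted beside the members. Of 40 S phase genes 35 were listed higher and 0 lower, with a median log2 ratio of 1.00, and of 46 G2/M genes 43 were listed higher and 0 lower, with a median of 1.09. Those of highest mean were Rrm1 (0.86), Rrm2 (0.90) and Mcm4 (0.98) for S phase, and Mki67 (1.72), Top2a (1.47) and Tpx2 (0.97) for G2/M. Without the genes of the chromatin lists, 75 of 83 genes of both phases were listed higher, with a median of 1.06. Asf1b, Chaf1a, Chaf1b, Nasp and Hmgb2 are themselves known to be expressed most in cells that copy their DNA, and the part of the number of dividing cells in the ratios of the 7 listed members was not tested. Of 10 fibroblast marker genes, all tested, 9 were not listed and Fn1, fibronectin, was listed lower (-0.69). Listing compares the genotypes, so this does not show whether the cells are fibroblasts. Of 10 markers of other cells, 7 were tested and 0 were listed higher, and the glial gene Sox10 was listed lower (113 against 326 normalized counts, -1.53). The part of these markers in the members' ratios was not tested.

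The promoter windows, 250 bases before to 50 after the table's start, were searched on both strands for motifs of cell cycle genes, and 9 of the 10 members had a window. A CCAAT box stood in the windows of 8 member genes, 6 of them listed, and in 37.4% of all 32851 promoters. At least 3 CCAAT boxes stood in 6 member genes, beside 3.37% of all promoters: Anp32e, Asf1b, Hmgb2 and H2afv with 4 each, and Hmgb1 and H2afz with 3 each. As H2afv and H2afz were not listed, repeated CCAAT boxes did not separate listed from unlisted members. A CHR stood in 5 member genes (Anp32e, Asf1b, Nasp, Hmgb2 and H2afv), 4 of them listed, beside 19.2% of all promoters, and the same 5 held both motifs, beside 7.52%.

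In the Hmgb2 sequence above, the CHR began 30 bases before the start and the nearest CCAAT box 11 bases before it, with further boxes at 73, 198 and 243. In Asf1b the CHR began 14 bases before the start and the boxes at 39, 79, 121 and 200. H2afv held the CHR at 41 and boxes at 17, 59, 224 and 244. The 4 E2F octamers searched (TTTCGCGC, TTTGGCGC, TTTCCCGC and TTTGCCGC) stood in 0 member windows and in 2.26% of all promoters. Chaf1b held none of these motifs although it was listed, and Chaf1a held 1 CCAAT box. A match is a description of the letters and not a bound site, and a missing match says only that these letters are not in the window.

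**Figure D5:**
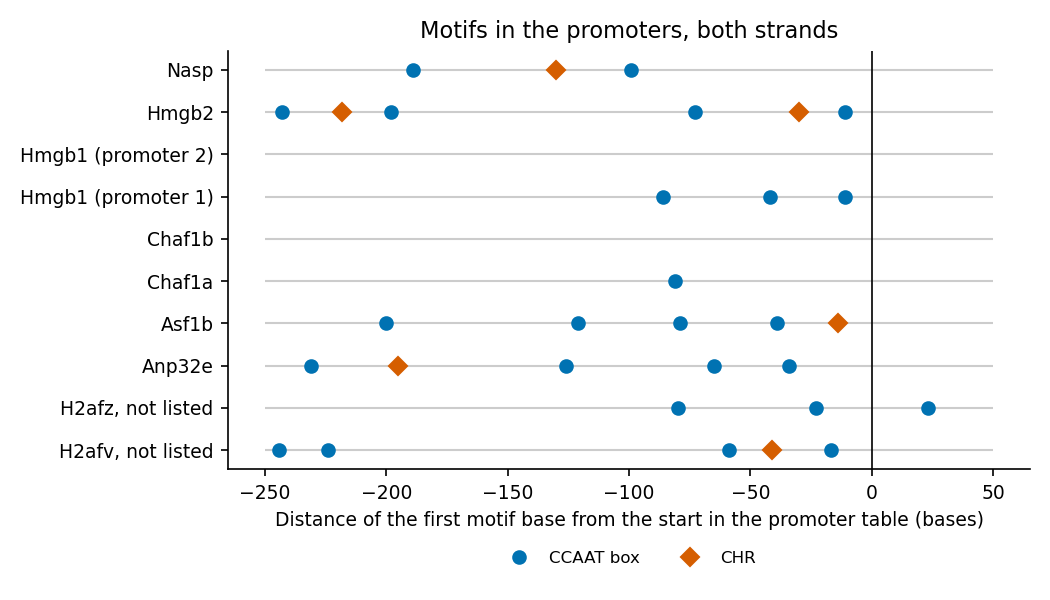
Position of CCAAT boxes (circles) and CHR motifs (diamonds) in the 10 promoter windows of 9 member genes, as the distance of the first motif base from the promoter table's start in bases, with both strands searched and Hmgb1 given with 2 promoters. The unlisted H2afv shows the same kinds of motif as the listed Asf1b and Hmgb2.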

How the data were processed

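The authors aligned paired 100-base reads with GSNAP, allowing no mismatch, to transcriptomes of C57BL/6J (GRCm38/mm10) and of 129S5/SvEvBrd, the latter made by placing known variants into the former, with the longest transcript for each gene. The authors counted pairs with a best place in 1 gene, summed both alleles, left out genes with few reads and ran DESeq. From what they deposited, signal values were taken: the mean normalized count of each genotype, in 3 tables of genes past the FDR limit of 0.05. The authors' fold changes and p-values, which the same tables hold, were not used. Which mean belongs to which genotype was read from the comparison that each table names and from the weighting of the overall mean, which equals 4 parts of one and 3 parts of the other. The table of normalized counts per sample gave only the list of 15531 tested genes. Its 9 value columns bear no line names and were not used, so the limma test between lines that had been planned could not be made.

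Log2 ratios are of Df/+Bl6 over +129/+Bl6 means with a pseudocount of 0. Members and lists were chosen with earlier results of these data known. The named genes are all members and, of each wider list, each gene listed lower and the 3 listed higher with the highest mean. Asf1a, Mis18a, Oip5, Supt16 and Rbbp4 were added after their values were seen. Near-identical copies were sought with blastn 2.17.0 on NCBIM37, with a minimum of 97% identity over 100 bases. Promoters and gene positions are from RefSeq, GRCm38.p6. Depth per library is unknown from these tables. Alternatives were pseudocounts of 1 and 10, centring on the median of listed genes, a minimum mean of 100, symbols matched by current name, the allele tables and other promoter windows. A few listed genes of the wider lists are counted but not reported here by name. Counting and ratio code was tested on simulated data. Python 3.11.15 with pandas 2.3.3, numpy 2.4.6 and matplotlib 3.10.9 was used.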

Additional observations from a re-analysis of the deposited data

How the results depend on the processing

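The median log2 ratio of the listed members was 0.70, and it was 0.095 after subtracting the median of all listed genes (0.61, taken over listed genes of both directions), 0.99 in the table of the 129S5/SvEvBrd allele and 0.73 in that of the C57BL/6J allele. The number of members listed higher was 7, against 4 and 1 in those allele tables. Over the 6 chromatin lists it was 21, against 1 and 4, and the number of replication-dependent histone genes listed lower was 5, against 2 and 1. A minimum mean of 100 left the first 2 counts at 7 and 21 and the last at 4, and matching symbols by current name gave 19 in place of 21. Of the values recomputed, 0 changed sign, 95 stayed close and 41 moved. Counts have no sign and a pseudocount cannot turn a ratio round, so the 0 was largely fixed beforehand. A ratio counted as moved when it differed after rounding to 2 decimals, and a count when it changed by more than a set factor. Centring took the same 0.61 off each ratio, so those ratios moved by construction. The cause of the other moves was not tested, and the tally is no measure of robustness. Allele tables hold fewer listed genes (257 and 326, beside 1346). Leaving out a line, and the planned pseudocount of the test between lines, were not run, because the tables hold no value per line. For the same reason no ratio has an error, and only the authors' FDR limit stands behind each listing.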

Other observations

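Some other listed genes of the same roles had values that belong to no comparison above. Mms22l, which acts at stalled forks with H3-H4, had 2252 mean normalized counts in Df/+Bl6 against 1130 in +129/+Bl6, a log2 ratio of 0.99. Hat1, which acetylates new H4, had 3915 against 1990 (0.98), and Set, an inhibitor of histone acetylation that also binds histones, had 11596 against 7185 (0.69). In the table of the C57BL/6J allele, Cenpa had 111.7 against 54.5 (1.03), Hmgn2 1033 against 508 (1.03) and Casp8ap2 432 against 185 (1.23). Casp8ap2 was also listed for the 129S5/SvEvBrd allele, with 216 against 113 (0.94). The histone gene Hist2h3c2, which has near-identical copies, stood in the table of the 129S5/SvEvBrd allele alone, with 22.9 against 62.5 (-1.45). These genes were chosen after their values were seen.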
